A study of Mus musculus with 9 samples.

Results

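The 10 genes described here, Lrg1, Prom1, Cldn15, Dmkn, Sgms2, Tmem215, Mtus1, Gatm, Emilin2 and Anxa3, were selected on their measured rise in Spop knockout over wild-type LSK cells and because they stand outside the usual lineage marker lists. They are 10 of 34431 genes found by symbol in both the LSK and the neutrophil count tables. LSK cells are the lineage-negative, Sca-1-positive, Kit-positive fraction of mouse bone marrow that holds stem cells and multipotent progenitors. The other population was sorted from the same tissue on Ly6G, a surface protein of neutrophils. Polyadenylated RNA was sequenced from 2 knockout and 2 wild-type LSK libraries and from 3 knockout and 2 wild-type neutrophil libraries. Knockout animals are labelled Spop(D/D) and wild-type animals Spop(+/+), all aged 4 to 12 weeks. How and in which cells the allele was deleted is not given in the sources used here. Spop is the substrate adaptor of a cullin-3 ubiquitin ligase, and the series title names the adaptor protein MyD88 as its target in emergency blood formation. Because the choice rests on the LSK comparison, LSK values of the 10 genes are given as a description without a test. The neutrophil libraries, on which the stated choice does not rest, carry the tests. Earlier results of these data were known when the genes were chosen.

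The 10 genes have no pathway in common. They encode secreted or matrix proteins (Lrg1, Dmkn, Emilin2), proteins of membranes and cell contacts (Prom1, Cldn15, Tmem215), metabolic enzymes (Sgms2, Gatm) and proteins that bind membranes or microtubules (Anxa3, Mtus1). As granulocytes form from multipotent progenitors, granule proteins, receptors and adhesion molecules are switched on in waves, so a gene can be transcribed in early precursors, in late neutrophils or throughout.

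Each library had 18827892 to 20264417 counted reads in LSK cells and 21012702 to 27434086 in neutrophils. Spop itself was read at 312 and 306 CPM (counts relative to library size, scaled by TMM factors) in knockout LSK libraries, against 380 and 390 CPM in wild type. In neutrophils it stood at 158, 178 and 210 CPM in knockout and at 135 and 194 CPM in wild type. The deleted exons are not given in the labels, and which exons of Spop these reads cover was not tested. Spop counts were lower in knockout LSK libraries but overlapped between genotypes in neutrophils. They do not by themselves show the deletion. The second knockout LSK library is called a neutrophil sample in its cell type field but LSK in its title and source name, and Ly6g had 0 reads in all 4 LSK libraries. The LSK progenitor list (12 genes, Kit and Ly6a among them) was detected in full in each LSK library. One neutrophil library, the second of wild type, was unlike the rest. Over 12 neutrophil markers it had 38717 CPM, knockout libraries had 231360 to 674860 CPM, and the other wild-type one had 224263 CPM. Over 12 B cell markers it had 6530 CPM, with 21.8 to 143 CPM in knockout and 424 CPM in its wild-type partner. The third knockout library held 18412 CPM of red cell markers, against 38.0 and 2.33 CPM in the other knockout libraries and 1757 and 3690 CPM in wild type.

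Of the secreted proteins, Lrg1 had the largest difference in LSK cells. Lrg1 (leucine-rich alpha-2-glycoprotein, chromosome 17, 56119678 to 56122001, minus strand, GRCm38) is an acute-phase protein that modifies transforming growth factor beta signalling. It had 313 and 303 reads (16.3 and 16.1 CPM) in knockout LSK libraries, against 0 and 4 reads (0 and 0.188 CPM) in wild type. Wild-type LSK cells thus lay at or near the floor of 3 reads, which is 0.141 to 0.152 CPM there and covers counting error only, and the fitted log2 fold change of 7.29 (SE 0.508) rests on those 4 reads. It was 6.39 without the first wild-type library and 11.29 without the second, which left wild type at 0. The value of 11.29 lies outside the interval of the main fit (6.18 to 8.40). The SE therefore understates how uncertain the fold change of Lrg1 is. Dmkn (dermokine, chromosome 7, 30763756 to 30781063, plus strand) is a secreted protein best known from the epidermis. Its level was 53.2 and 35.2 CPM in knockout LSK libraries, against 0.913 and 1.74 CPM in wild type, a log2 fold change of 5.04 (SE 0.316). The knockout libraries lay further apart for Dmkn than for the other 9 genes, yet the genotypes did not overlap. Emilin2 (chromosome 17, 71252172 to 71311978, minus strand) encodes an elastin-associated glycoprotein of the extracellular matrix. It was already present in wild type, with 228 and 224 CPM in knockout LSK libraries, against 45.2 and 52.5 CPM in wild type (log2 2.21, SE 0.110).

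Membrane and junction genes rose out of a very low wild-type level. Prom1 (prominin 1, CD133, chromosome 5, 43993620 to 44102032, minus strand) encodes a cholesterol-binding protein of membrane protrusions that marks human blood stem cells. In knockout LSK libraries it stood at 21.7 and 18.5 CPM, against 0.558 and 0.516 CPM in wild type, where each library had 11 reads (log2 5.21, SE 0.297). Cldn15 (chromosome 5, 136966616 to 136975858, plus strand) encodes a claudin of tight junctions that forms cation pores in the intestine. Its level was 42.8 and 43.8 CPM in knockout LSK libraries, against 0.659 and 1.88 CPM in wild type (log2 5.07, SE 0.332). Without the first wild-type library the value was 4.53 and without the second 6.03. The value of 6.03 lies above the interval of the main fit (4.32 to 5.82), so the SE of Cldn15 also understates its uncertainty. Tmem215 (chromosome 4, 40472180 to 40477168, plus strand) encodes a transmembrane protein. It had 45.0 and 41.7 CPM in knockout LSK libraries, against 2.99 and 2.02 CPM in wild type (log2 4.12, SE 0.221). For these 3 genes the knockout libraries lay close together and far above wild type.

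Both enzymes were higher in knockout, one out of a low and one out of a substantial wild-type level. Sgms2 (chromosome 3, 131318985 to 131491411, minus strand) makes sphingomyelin from ceramide at the plasma membrane. It stood at 40.0 and 37.2 CPM in knockout LSK libraries, against 1.01 and 1.97 CPM in wild type (log2 4.68, SE 0.268). Gatm (chromosome 2, 122594467 to 122611303, minus strand) catalyses the first step of creatine synthesis, the transfer of an amidino group from arginine to glycine. It was the most abundant of the 10 genes in LSK cells, with 468 and 454 CPM in knockout and 96.8 and 113 CPM in wild type (log2 2.13, SE 0.104). Anxa3 (chromosome 5, 96793339 to 96845966, plus strand), a calcium-dependent membrane-binding annexin found on neutrophil granules, had 213 and 201 CPM in knockout LSK libraries, against 17.5 and 23.9 CPM in wild type (log2 3.32, SE 0.144). Mtus1 (chromosome 8, 40990914 to 41133726, minus strand) encodes microtubule-associated proteins that also bind the type 2 angiotensin receptor. Its level was 76.8 and 83.3 CPM in knockout LSK libraries, against 3.35 and 6.19 CPM in wild type (log2 4.06, SE 0.234).

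**Figure D1:**
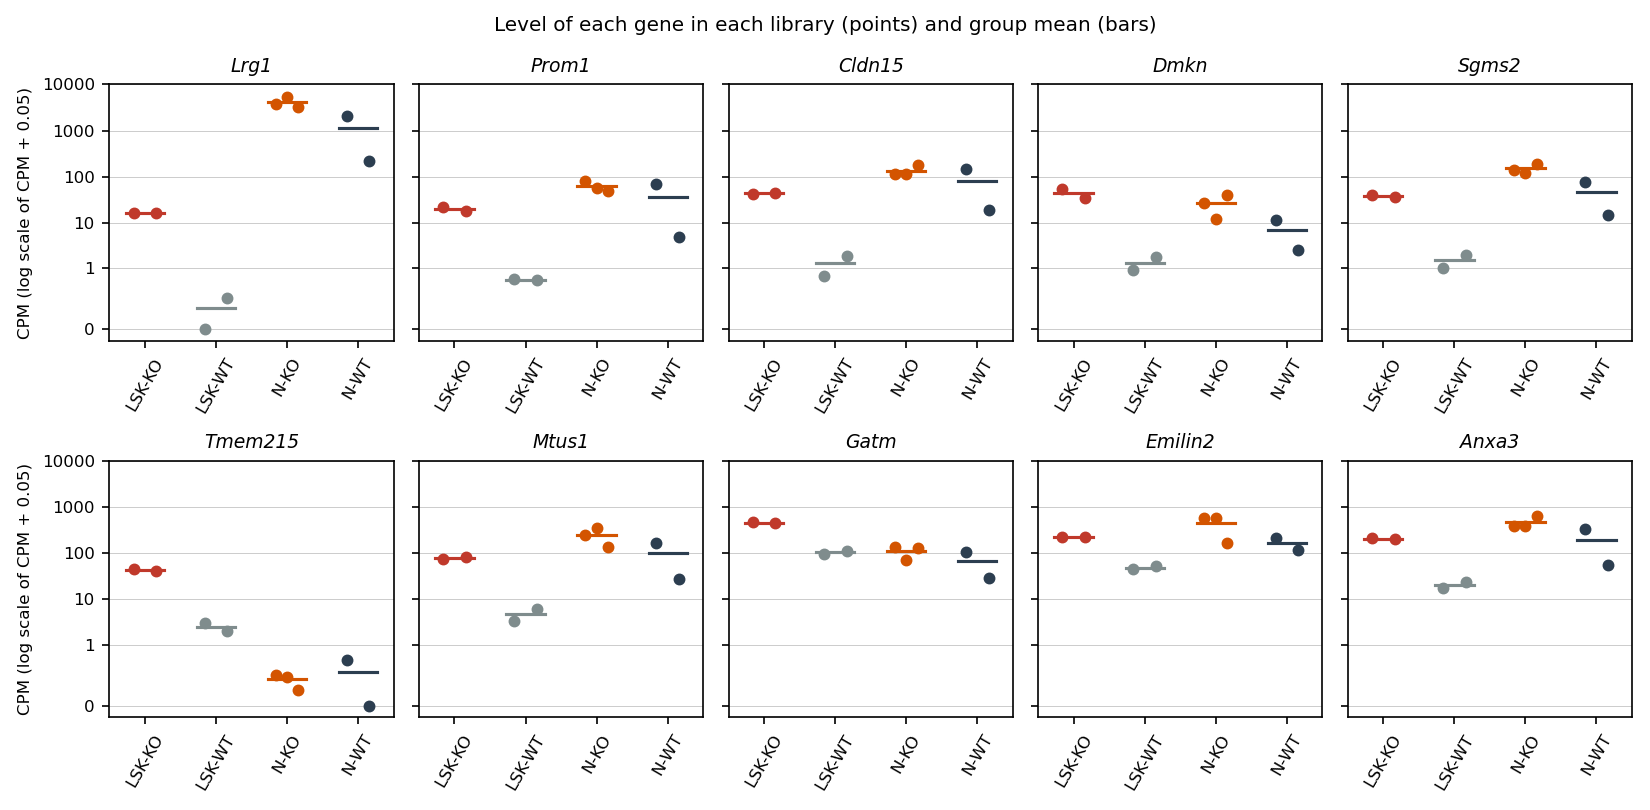
Level of each of the 10 genes in each library (points) and mean of each group (bars), in CPM on a logarithmic scale of CPM + 0.05, with knockout (KO) left of wild type (WT) for LSK cells and then for neutrophils (N). Knockout LSK points lie above wild-type LSK points for each gene, and Tmem215 alone is near 0 in neutrophils.

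All 10 genes passed the filter on low counts in LSK cells, and their genotypes did not overlap, with knockout higher. Across the 13008 genes tested, 34.6% were separated in that direction and 5.55% had a fitted fold above 2, so separation alone is common in these data. Of all genes tested 42.2% passed, 21.0% as higher and 21.2% as lower (2738 and 2756 genes, edgeR), while upper-quartile scaling gave 2207 and 3445. The median log2 fold change was 4.40 for the 10 genes and -0.03 for all genes tested, a direction fixed by the choice. By fitted fold change the genes ranked between place 9 (Lrg1) and place 197 (Gatm), so they are not the 10 largest rises. The choice had no stated threshold. Emilin2 (4.62-fold), Gatm (4.39-fold) and Anxa3 (9.99-fold) differed least and were the 3 most abundant in wild type.

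**Figure D2:**
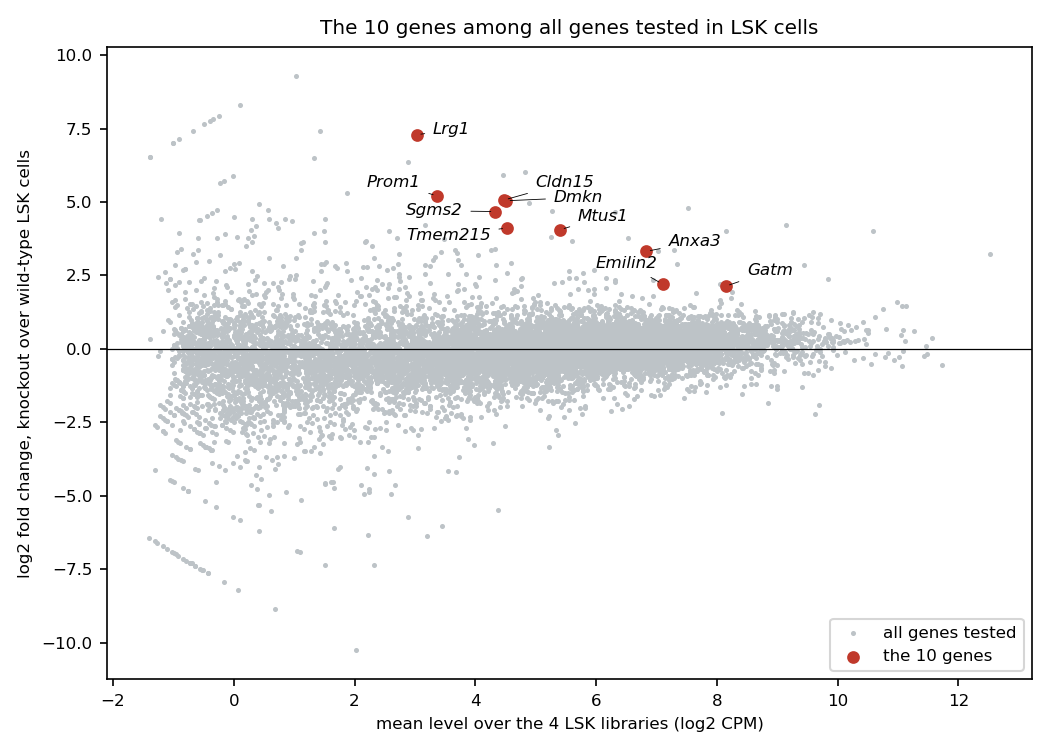
Fitted log2 fold change of knockout over wild-type LSK cells against mean level (log2 CPM) for the 13008 genes tested (grey) and the 10 genes (red). The 10 genes lie at log2 fold changes of 2.13 to 7.29, and Gatm and Emilin2 are the lowest of them.

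Levels of different genes can be ordered only per length of transcript, here as CPM per kilobase of annotated exon. In knockout LSK cells Gatm led with 154 ± 3.33 (SD, n = 2), followed by Anxa3 with 56.8 ± 2.41 and Emilin2 with 41.0 ± 0.570. Next came Cldn15 (20.4 ± 0.313) and Dmkn (20.2 ± 5.81), whose libraries overlapped, then Lrg1 (11.5 ± 0.0977), Tmem215 (9.14 ± 0.504), Mtus1 (7.94 ± 0.459), Sgms2 (6.20 ± 0.323) and Prom1 (2.80 ± 0.318). In wild-type LSK cells Gatm (35.0 ± 3.90), Emilin2 (8.87 ± 0.938) and Anxa3 (5.68 ± 1.24) stood first and the other 7 genes lay below 1. On this scale Gatm exceeded 98.0% of detected protein-coding genes in each knockout LSK library, and Prom1 exceeded 37.9% and 37.1%.

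The strand setting of the counting is not known, so reads of overlapping genes may be mixed. Mtus1 shares 9.98% of its exon bases with opposite-strand genes (B430010I23Rik and Gm16192) and Prom1 5.91% (Gm16401), while 3.07% of those of Anxa3 lie in exons of a gene on the same strand (Gm42603). The other 7 genes share no exon base with another annotated gene.

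Markers of several cell types moved with the 10 genes in LSK cells. For comparison, 21.0% of all 13008 genes tested rose and 21.2% fell. Of 12 markers of granulocyte-monocyte progenitors, all tested, 11 rose and 0 fell in knockout (median log2 2.08), and they summed to 20171 and 23503 CPM in knockout and to 3419 and 3869 CPM in wild type, with none at 0. Markers of monocytes and macrophages summed to 978 and 1451 CPM in knockout and to 143 and 201 CPM in wild type (6 of 12 rose, 5 fell). Of 12 mast cell and basophil markers 10 rose and 1 fell, and their sum was 489 to 573 CPM in knockout and 387 to 423 CPM in wild type. Of 12 LSK progenitor markers, 10 fell and 1 rose, and they summed to 2936 and 3192 CPM in knockout and to 4972 and 5237 CPM in wild type. In bulk RNA a change in the share of cells of a type and a change in RNA per cell cannot be told apart, and the part of these shifts in the values of the 10 genes was not tested. Mature neutrophil markers differed in direction. Their sum was 254 and 214 CPM in knockout LSK cells, against 168 and 172 CPM in wild type, and of the 10 tested 3 rose and 3 fell. Those that rose were Lcn2 (55.6 and 58.8 CPM in knockout, 1.83 CPM in both wild-type libraries), Mmp8 (3.91 and 6.12 CPM in knockout, 0.609 and 0.657 CPM in wild type) and Cxcr2 (a mean of 26.2 CPM in knockout, 5.69 CPM in wild type). Those that fell were Ltf (0.213 and 0.261 CPM in knockout, 1.36 and 2.08 CPM in wild type), Ngp (0.213 and 1.41 CPM in knockout, 7.32 and 7.41 CPM in wild type) and Padi4 (89.6 and 110 CPM in knockout, 123 and 131 CPM in wild type). Ly6g was at 0 in all 4 libraries. Epithelial markers, listed because claudins and dermokine are epithelial genes, summed to 51.8 and 52.5 CPM in knockout and to 79.7 and 85.8 CPM in wild type. Most of this came from Krt18 (43.6 to 45.1 CPM in knockout, 74.6 to 76.5 CPM in wild type). Of the 6 tested, Cdh1 rose (2.71 and 4.04 CPM in knockout, 0.328 and 0.862 CPM in wild type), and Krt18, Cldn4 and Ovol1 fell. Krt5, Krt14, Krt19 and Esrp1 had 0 reads in all 4 LSK libraries. Of the other lists, 9 of 11 B cell markers (median log2 -4.18), 8 of 12 red cell markers (-3.85) and 8 of 10 endothelial markers (-1.30) fell and 0 rose. Of 11 megakaryocyte and platelet markers 5 fell and 1 rose, and of 12 dendritic cell markers 5 fell and 2 rose. The T and NK cell, eosinophil and stromal lists had at most 2 calls in either direction.

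In Ly6G-sorted neutrophils 9 of the 10 genes were expressed, some of them strongly. Lrg1 stood at 3829, 5429 and 3225 CPM in knockout neutrophils, against 2092 and 220 CPM in wild type. That placed it above 99.7% to 99.9% of detected protein-coding genes in knockout libraries by level per kilobase. Anxa3 had 395, 395 and 629 CPM in knockout neutrophils, against 333 and 55.4 CPM in wild type. Emilin2 was at 583, 583 and 165 CPM in knockout and at 218 and 120 CPM in wild type, so the third knockout library fell between the wild-type ones. Mtus1 stood at 252, 350 and 138 CPM in knockout neutrophils, against 170 and 28.0 CPM in wild type, and its genotypes overlapped.

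The remaining genes were moderate or absent in neutrophils. Sgms2 had 143, 121 and 190 CPM in knockout neutrophils, against 76.7 and 14.8 CPM in wild type, with no overlap. Cldn15 stood at 116, 112 and 176 CPM in knockout and at 146 and 18.8 CPM in wild type. For Gatm the values were 137, 72.2 and 129 CPM in knockout and 106 and 29.5 CPM in wild type. In both genes the first wild-type library lay inside the knockout range. Prom1 had 80.3, 57.2 and 48.0 CPM in knockout and 68.0 and 4.90 CPM in wild type, again with overlap. Dmkn stood at 27.5, 12.3 and 39.6 CPM in knockout neutrophils, against 11.4 and 2.48 CPM in wild type, where the lowest knockout library was just above the highest wild-type one. Tmem215 had 5, 4 and 1 reads in knockout neutrophils and 12 and 0 reads in wild type, too few to pass the filter, so no fold is given. For each of the 10 genes the second wild-type library, with its low neutrophil marker sum, was the lowest of the 5 neutrophil libraries.

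None of the 9 genes tested in neutrophils passed after adjustment over the 12836 genes tested (edgeR quasi-likelihood, Benjamini-Hochberg). The smallest adjusted p-values were 0.345 for Dmkn (log2 1.93, 95% interval 0.07 to 3.80) and 0.347 for Sgms2 (log2 1.73, interval 0.05 to 3.41). Lrg1 had a log2 fold change of 1.85 (interval -0.48 to 4.18, adjusted p = 0.454, edgeR) and Emilin2 one of 1.39 (interval -0.23 to 3.01, adjusted p = 0.416). For Mtus1 and Anxa3 it was 1.32 and 1.28, and for Prom1, Gatm and Cldn15 it was 0.76, 0.74 and 0.71. The intervals of Dmkn and Sgms2 begin just above 0, and those of the other 7 genes hold both no change and a several-fold rise. No gene of the whole table passed (0.00% of 12836 genes by edgeR, with 1787 or 13.9% at an unadjusted p under 0.05), while DESeq2 called 272 genes higher and 605 lower, none of the 9 among them (smallest adjusted p = 0.146). All 9 fitted values were above 0, with a median of 1.32 beside 0.02 over all genes tested. In 4 of the 9 (Lrg1, Dmkn, Sgms2 and Anxa3) the genotypes did not overlap, knockout being higher, a pattern seen at 17.0% of all genes tested.

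The second wild-type library carries much of that difference. Without it, in a fit where wild type is a single library, the log2 fold changes were 0.96 for Lrg1, 1.18 for Dmkn, 0.95 for Sgms2, 0.99 for Emilin2, 0.51 for Mtus1 and 0.47 for Anxa3. Those of Gatm, Cldn15 and Prom1 were then 0.06, -0.15 and -0.17. Without the first wild-type library instead, so that the second stood alone for wild type, 5 genes passed: Lrg1 (log2 4.30, adjusted p = 0.0350, edgeR), Sgms2 (3.41, 0.0350), Prom1 (3.72, 0.0355), Anxa3 (3.15, 0.0453) and Cldn15 (2.90, 0.0468). With 2 wild-type libraries, the composition of the second one and the genotype cannot be told apart.

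**Figure D3:**
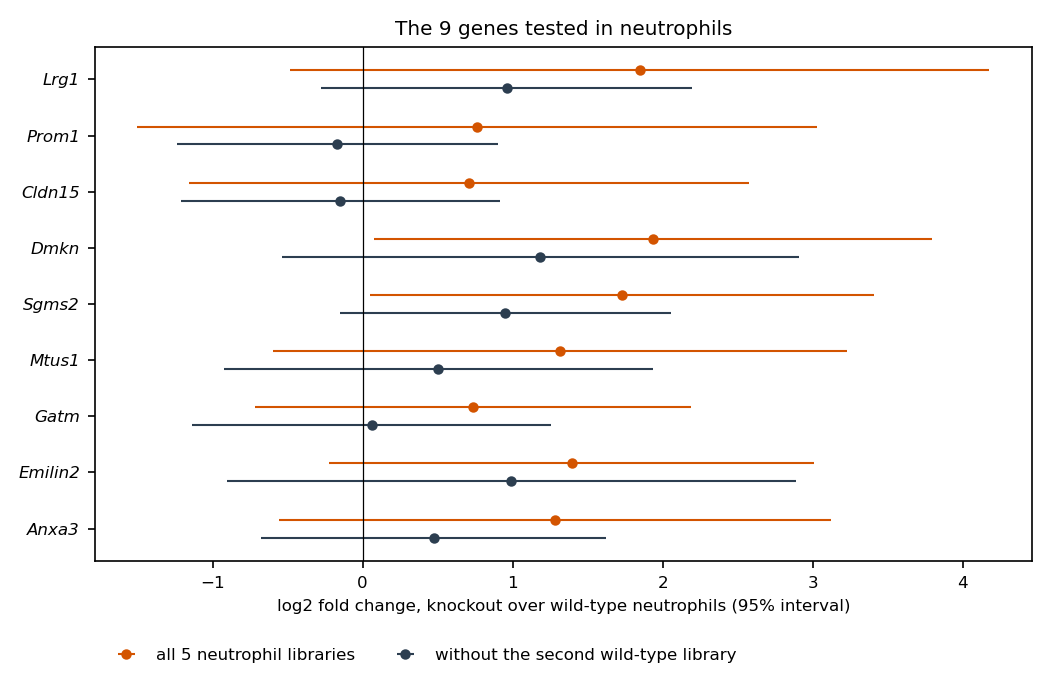
Fitted log2 fold change of knockout over wild-type neutrophils with 95% intervals for the 9 genes tested, in all 5 libraries (orange) and without the second wild-type library (dark blue). Intervals of Dmkn and Sgms2 start at 0.07 and 0.05 with all libraries, and without that library each interval holds 0.

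The level in knockout LSK cells was next set against that in knockout neutrophils. The 2 populations were counted and scaled apart, so these shares are descriptions without a test. Lrg1 in knockout LSK cells reached 0.390% of its mean CPM in knockout neutrophils. Prom1 (32.5%), Mtus1 (32.4%), Cldn15 (32.1%), Sgms2 (25.5%), Anxa3 (43.8%) and Emilin2 (50.9%) reached larger shares. Gatm (409%) was higher in every knockout LSK library than in any knockout neutrophil library, whereas for Dmkn (167%) the mean was higher but the libraries overlapped, and Tmem215 was read almost solely in LSK cells (1647 reads in the 2 knockout LSK libraries, 10 in the 3 knockout neutrophil libraries). Mature neutrophil markers reached far smaller shares, from 0% for Ly6g, 9.36e-04% for Retnlg and 0.00104% for Ltf to 0.240% for Lcn2, with Cxcr2 (2.74%) and Padi4 (13.8%) as exceptions. The shares of the markers and of the 10 genes thus spanned several orders of magnitude. The knockout LSK level is part of the rise the genes were chosen on, so their gap to the markers is partly fixed by the choice. In wild type the shares were 0.00812% for Lrg1, 1.47% for Prom1, 1.54% for Cldn15, 3.26% for Sgms2 and 4.81% for Mtus1. They were 10.7% for Anxa3, 19.1% for Dmkn, 28.9% for Emilin2, 155% for Gatm and 1173% for Tmem215. These wild-type shares are rough, because the wild-type neutrophil means join 2 unlike libraries (2092 and 220 CPM for Lrg1, 68.0 and 4.90 CPM for Prom1). Those of Lrg1 and Tmem215 also rest on 4 wild-type LSK reads and 12 wild-type neutrophil reads, in that order. Among the markers Cxcr2 (2.01%) and Padi4 (43.9%) had the largest wild-type shares.

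**Figure D4:**
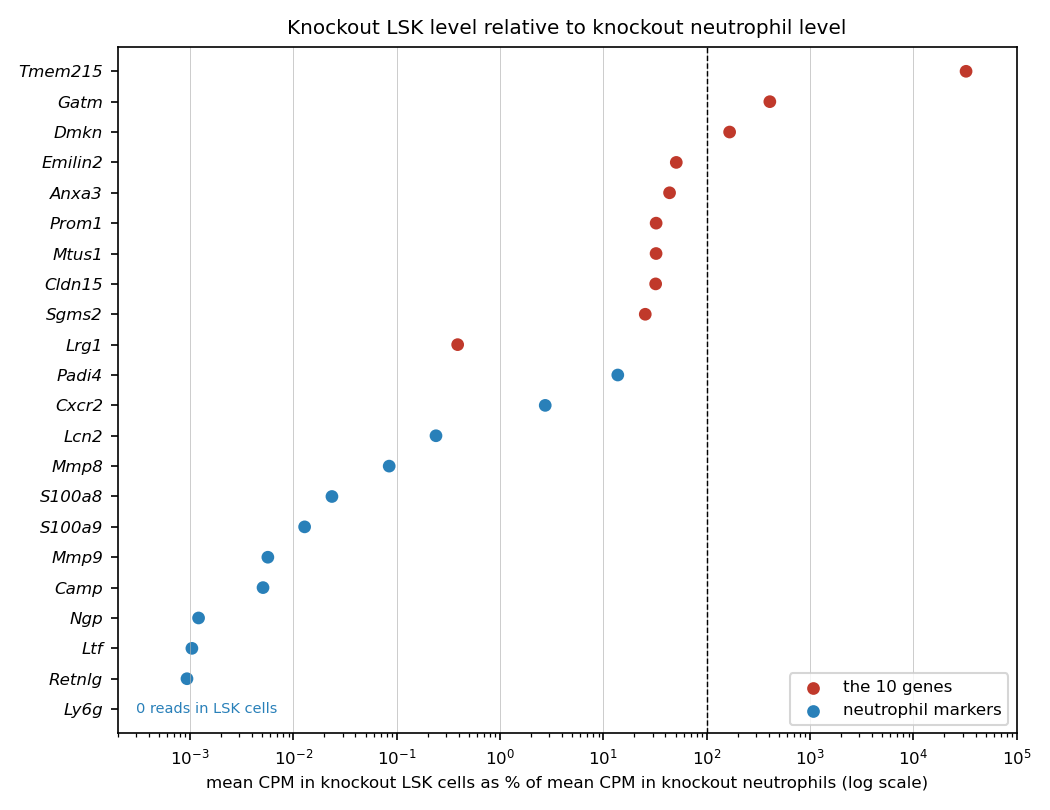
Mean CPM in knockout LSK cells as a percentage of mean CPM in knockout neutrophils (logarithmic axis, dashed line at 100%) for the 10 genes (red) and 12 neutrophil markers (blue). The red points of 9 genes lie above all blue points, and Lrg1, at 0.390%, lies next to Lcn2. The genes were chosen on a rise in knockout LSK cells, which partly fixes this gap.

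Likeness of pattern over all 9 libraries was measured as the root mean square difference of gene-centred log2 CPM. Predicted and clone names were left out, and the nearest gene is the nearest among the 12285 genes compared. It is a description in which the LSK libraries that chose the genes take part. Cldn15 and Sgms2 were each other's nearest gene (0.40), and Prom1 was nearest to Sgms2 (0.53) and Cldn15 (0.55). Close to Cldn15 and Sgms2 was also Clec5a (0.52 from each), a myeloid lectin receptor, and Trem3 (0.50 from Cldn15), a myeloid receptor. Lrg1 had Lcn2, an iron-chelating granule protein, as its nearest gene (0.64), then Chil3 (1.23) and the collagenase Mmp8 (1.27). Dmkn was nearest to Ms4a3 (0.67) and the protease Elane (0.85), genes of granulocyte precursors, and then to Chac1 (0.93). Emilin2 was nearest to Csf2rb, a signalling chain that several myeloid cytokine receptors have in common (0.30), then to the ceramide synthase Cers6 (0.42) and Abcd2 (0.46). Gatm stood nearest to Ncapg, a subunit of the mitotic condensin complex (0.32), Fam72a (0.34) and Fam221a (0.41). Mtus1 had Id1 (0.42), Celsr3 (0.52) and Olr1 (0.56) as nearest genes, and Anxa3 had Celsr3 (0.51), Prss16 (0.55) and Olr1 (0.56). Tmem215 had no near match, its nearest genes being Dlk1 (0.97), Hs6st2 (1.03) and Car12 (1.18). By this measure Prom1, Cldn15 and Sgms2 stood together, and Tmem215, Dmkn and Lrg1 had the most distant nearest genes.

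Genes with related roles were read in LSK cells from lists that leave the 10 genes out. Over all 9 lists 162 genes were tested, of which 46 rose and 47 fell (edgeR, adjusted over all 13008 genes, where 21.0% rose and 21.2% fell), with a median log2 fold change of -0.11. Relatives of Lrg1, acute-phase and STAT3-induced genes listed with receptors of the transforming growth factor beta family, mostly rose: 12 of 21 rose and 2 fell, with a median of 0.50. The 2 that fell were such receptors, Tgfbr2 (88.4 CPM in knockout, 168 CPM in wild type) and Eng (114 CPM in knockout, 157 CPM in wild type). Tgfbr1 and Acvrl1 did not pass. Lcn2 stood at 57.2 CPM in knockout and 1.83 CPM in wild type (31.2-fold), the cytokine-signal suppressor Socs3 at 115 CPM in knockout and 50.4 CPM in wild type, and the transcription factor Cebpb at 96.3 CPM in knockout and 39.0 CPM in wild type. Among genes of arginine and creatine metabolism 12 of 19 rose and 2 fell (median 0.77). The polyamine enzymes Srm (2.22-fold) and Odc1 (2.12-fold), the serine hydroxymethyltransferase Shmt2 (2.37-fold) and the transaminase Got1 (2.51-fold) had the smallest p of these. The arginine transporter Slc7a2 (5.53-fold) and the arginine synthesis enzyme Ass1 (2.76-fold), chosen after their values were seen, rose more. Slc7a2 was low, with 2.07 CPM in knockout and 0.375 CPM in wild type. The creatine genes tested, Gamt (4.01 CPM in knockout, 2.58 CPM in wild type) and Ckb (3.45 CPM in knockout, 4.68 CPM in wild type), did not pass.

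Tight-junction genes listed with Cldn15 fell or did not pass. Of 19 tight-junction genes tested, 0 rose and 11 fell in knockout LSK cells (median -0.59). F11r, a junctional adhesion molecule, stood at 33.0 CPM in knockout and 72.4 CPM in wild type (adjusted p = 3.5e-05, edgeR), and the polarity scaffold Patj at 12.7 CPM in knockout and 30.2 CPM in wild type. Esam, an endothelial and stem cell adhesion molecule, fell to 41.5 CPM in knockout, against 62.6 CPM in wild type. Cldn5 fell to 0.0527 CPM in knockout (2 reads in all), against 2.32 CPM in wild type. Stem cell surface and tetraspanin genes listed with Prom1 also fell more often than they rose: 11 of 17 fell and 2 rose (median -0.50). The protein C receptor Procr, a stem cell marker, stood at 14.0 CPM in knockout and 49.5 CPM in wild type, and the stem cell factor receptor Kit at 625 CPM in knockout and 1019 CPM in wild type, while Cd48 rose 1.75-fold.

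Within the remaining families, relatives differed in direction. In sphingolipid metabolism 9 of 36 genes rose and 10 fell (median -0.12). Sgms1, the sphingomyelin synthase of the Golgi, fell in knockout LSK cells (63.1 CPM, against 127 CPM in wild type, adjusted p = 1.6e-05, edgeR) where Sgms2 was higher. The ceramide synthases Cers6 (4.77-fold higher) and Cers4 (log2 -1.35) also differed in direction, and the alkaline ceramidase Acer3 rose 1.92-fold. Among EMILIN and elastic matrix genes 4 of 13 rose and 3 fell (median 0.11). Mmrn1, a multimerin of the EMILIN family, fell to 38.7 CPM, against 148 CPM in wild type, and Emid1 and Ltbp3 had log2 fold changes of -0.74 and -0.67. Fibronectin (Fn1) rose to 1.79 CPM in knockout, against 0.117 CPM in wild type (5 reads in all). Of 13 annexins and partners 3 rose and 2 fell (median -0.04), among them Anxa2 (2.08-fold higher), Anxa1 (1.59-fold higher), Anxa4 (log2 -0.87) and S100a10 (log2 -0.89). Of 20 microtubule-associated genes 3 rose and 4 fell (median -0.13), with the mitotic kinesin Kif2c 2.41-fold higher, Map7 at log2 -0.68 and Mapre3 at log2 -2.47. Ckap5 (log2 0.38) passed with all libraries but not without the first wild-type one (adjusted p = 0.0805, edgeR). Only 4 cornified-layer genes were tested: Tgm1 rose 2.80-fold, Krt10 did not pass (2.36 CPM in knockout, 3.35 CPM in wild type), and both Calm4 (0.106 CPM in knockout, 1.07 CPM in wild type) and Sbsn (1.05 CPM in knockout, 3.52 CPM in wild type) fell. The call of Sbsn was lost without the first wild-type library (adjusted p = 0.0858, edgeR), that of Calm4 without the second (0.0714) or without the first knockout library (0.0504). In neutrophils 0 of 151 list genes passed with edgeR, against 19 with DESeq2.

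Genes next to the 10 genes on the chromosome showed smaller differences, with 1 exception, an outcome largely fixed by choosing the 10 genes for large rises. Of the 20 nearest tested genes, 1 on each side, 9 rose and 2 fell in knockout LSK cells (edgeR, median log2 0.41), and 4 had a fitted fold above 2 upwards. Over all genes tested 21.0% rose, 21.2% fell and 5.55% were above that fold. Gm14085, 66427 bases from Gatm, stood at 12.0 CPM in knockout and 1.26 CPM in wild type, a log2 fold change of 3.24 that exceeded that of Gatm. Ffar2, a receptor for short-chain fatty acids 37285 bases from Dmkn, rose 2.96-fold, whereas Sbsn on the other side of Dmkn, another gene of the epidermal locus, fell. Sema6b, 1084 bases from Lrg1, rose 2.31-fold to 42.6 CPM, against 18.5 CPM in wild type. Pdgfrl, 129 bases from Mtus1, did not pass (0.841 CPM in knockout, 0.349 CPM in wild type), nor did Fis1, 382 bases from Cldn15 (167 CPM in knockout, 190 CPM in wild type). Tapt1, next to Prom1, fell (log2 -0.88), while Cd38 on the other side did not pass (log2 -0.24). Without the first wild-type library 7 of the 20 passed, and the calls lost were those of Hdgfl2, Smchd1, Bmp2k and Sbsn.

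**Figure D5:**
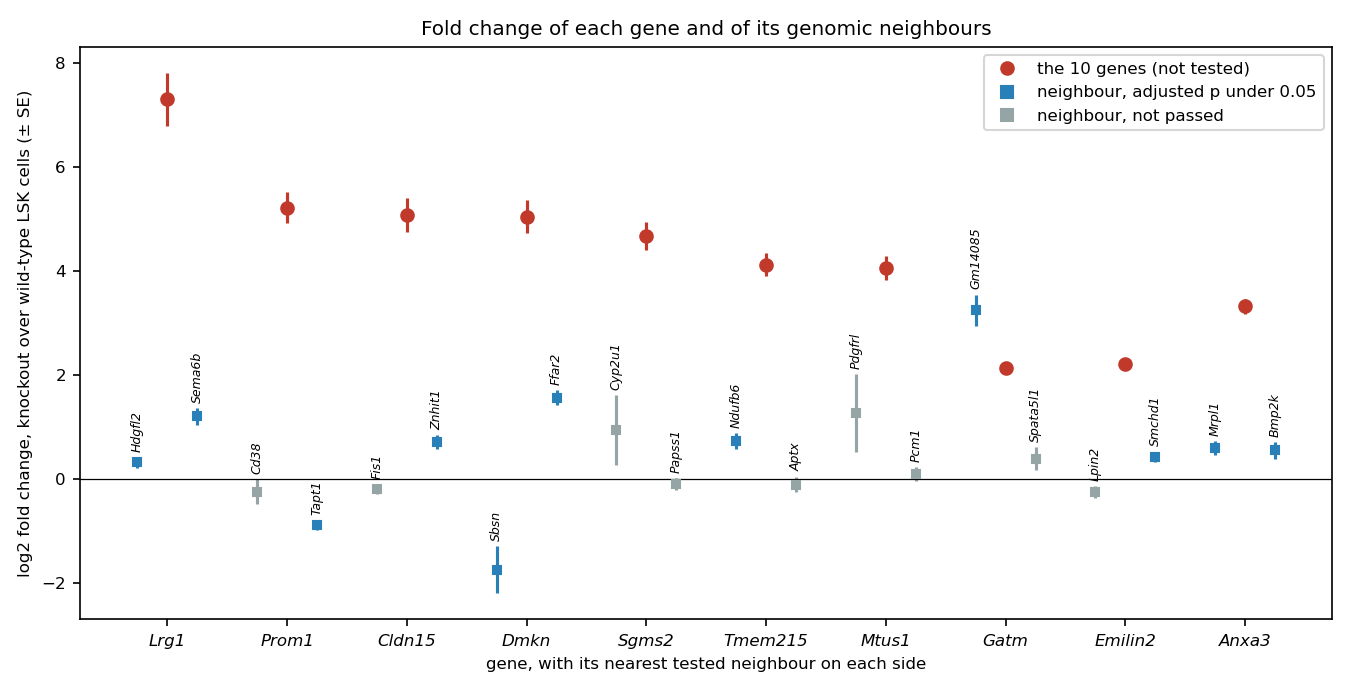
Fitted log2 fold change (± SE) of knockout over wild-type LSK cells for each of the 10 genes (red circles) and its nearest tested neighbour on each side (squares, blue where the adjusted p was under 0.05 and grey elsewhere). The neighbour Gm14085, at 3.24, is the only square above its own gene. For Lrg1 and Cldn15 the SE understates the shift seen when the second wild-type library is left out.

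Promoter sequence was read for 8 of the 10 genes from RefSeq windows on GRCm38.p6, as a feature that the choice did not use. The windows run from 250 bases before the 5′-most RefSeq start to 50 bases from it on, and Mtus1 and Anxa3 were not matched. In Lrg1, Prom1, Cldn15, Gatm and Emilin2 the 250 bases before that start touch an annotated exon of the gene itself, so they may hold transcribed sequence. Motifs were searched on both strands. TTNNGNAA, a core of sites for C/EBP factors, which drive granulocyte genes, was in 4 of the 8 (Prom1, Dmkn, Sgms2 and Emilin2), against 40.8% of 27025 promoters. TGTGGT, a RUNX core, was in 2 (Prom1 and Sgms2), against 16.9%. GAGGAAG, read by PU.1, and TTCNNNGAA, read by STAT factors, were in 0 of the 8, against 13.5% and 8.42%. These counts are near the share of all promoters, and no match overlapped one of another motif. The 250 bases before the start are printed for the 3 genes whose window touches no annotated exon, a pair found in both populations and Tmem215, with nearly all its reads in LSK cells, and matches are in capitals. Dmkn lies at chr7:30763506-30763755 on the plus strand, Sgms2 at chr3:131491444-131491693 on the minus strand and Tmem215 at chr4:40471930-40472179 on the plus strand.
Dmkn: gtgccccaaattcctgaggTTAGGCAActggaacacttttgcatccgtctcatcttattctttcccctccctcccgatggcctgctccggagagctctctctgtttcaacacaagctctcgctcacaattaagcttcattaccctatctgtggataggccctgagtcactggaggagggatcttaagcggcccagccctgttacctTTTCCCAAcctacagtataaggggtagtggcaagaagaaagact
Sgms2: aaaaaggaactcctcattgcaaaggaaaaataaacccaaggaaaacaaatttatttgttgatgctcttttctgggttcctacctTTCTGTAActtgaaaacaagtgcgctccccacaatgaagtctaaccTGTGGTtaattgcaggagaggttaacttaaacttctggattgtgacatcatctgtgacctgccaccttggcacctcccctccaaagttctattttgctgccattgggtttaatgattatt
Tmem215: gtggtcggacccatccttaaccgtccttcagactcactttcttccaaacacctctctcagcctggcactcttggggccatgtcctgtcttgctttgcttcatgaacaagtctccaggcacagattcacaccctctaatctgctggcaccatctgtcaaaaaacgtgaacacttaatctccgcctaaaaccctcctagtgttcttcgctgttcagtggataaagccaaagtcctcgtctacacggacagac
In Dmkn the C/EBP letters were TTAGGCAA at -231 to -224 and TTTCCCAA at -44 to -37, counted from -1 at the base before the start. Sgms2 held TTCTGTAA at -166 to -159 and the RUNX letters at -120 to -115, and Tmem215 held none of the 4 motifs.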

How the data were processed

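Libraries were made from polyadenylated RNA of LSK cells and Ly6G-sorted neutrophils with RNeasy Micro and SMART-Seq v4 kits, per the labels. STAR, featureCounts, DESeq2 and bcl2fastq, with the builds mm10 and GRCm38, are named in the submitters' processing notes. Sources used here give no versions, annotation or strand setting. The authors deposited raw read counts per gene, used for all tests, and a normalized table (signal) in which, for 99.87% to 100% of genes with over 100 reads, the value lay within 1% of the count divided by 1 factor per library.

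A GENCODE M21 symbol was found for 35412 of the 37187 LSK identifiers, and the neutrophil counts came with 45076 symbols. Each population was fitted alone with edgeR 4.0.16 in R 4.3.3 (TMM, filter by group, robust quasi-likelihood F test, Benjamini-Hochberg threshold 0.05), tested on simulated data. Replicates differed beyond sampling noise and each counted once. No label ties a library to its own animal, so the p-values describe library-to-library spread, which may be technical. Alternatives were other scalings, DESeq2 1.42.0, no filter, libraries left out, a replicate block and 1 fit of all 9 libraries.

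The 10 genes and all lists were chosen with earlier results of these data known. Named were the 10 genes, the 3 genes of most similar pattern, up to 4 genes per list by smallest p in LSK cells, markers and the nearest tested neighbours. Promoter windows came from RefSeq.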

Additional observations from a re-analysis of the deposited data

How the results depend on the processing

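In LSK cells the 10 genes kept log2 fold changes of at least 2.03 under each alternative run, and their median log2 fold change of 4.40 ran from 4.36 to 4.87 when 1 library was left out, the highest without the second wild-type library. Genes called over the whole LSK table numbered 5494, from 3524 to 5718 when 1 library was left out, and 0 in 1 fit of all 9 libraries, where 933 genes had an unadjusted p under 0.05. Neighbour calls ran from 7 to 12 with another scaling, tool or filter or with 1 library left out. No neighbour passed in 1 fit of all 9 libraries, where no gene did, and neighbours were not counted with the replicate block. In neutrophils, where the main count was 0, the calls numbered 877 with DESeq2, 334 without the filter on low counts, 528 in 1 fit of all 9 libraries and 0 to 601 when 1 library was left out, and the list genes called numbered 19 with DESeq2, 8 without the filter and 0 to 11 with 1 library left out. The cause was not tested. Of the 10 genes, 5 passed in neutrophils without the first wild-type library, and 0 passed without any other single library or with another scaling, filter, tool or fit. Their neutrophil median of 1.32 ran from 0.49 to 3.20 when 1 library was left out and was 0.50 without the second wild-type and the third knockout library together, where, as without the second wild-type library alone, Tmem215 passed the filter and is included. Prom1 (-0.17 to 3.72) and Cldn15 (-0.15 to 2.90) changed sign without the second wild-type library, and Cldn15 (-0.38) and Gatm (-0.030) did without both of those libraries. Among LSK neighbours that did not pass, Papss1 (-0.17 to 0.027), Aptx (-0.20 to 0.033) and Pcm1 (-0.020 to 0.24) changed sign without the first knockout library. Upper-quartile scaling moved the median of all genes in neutrophils to -0.12 in place of 0.02.

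With the replicate number as a block, 334 genes passed in neutrophils, none of the 9 tested among them (smallest adjusted p = 0.112, edgeR), and 2881 rose and 2895 fell in LSK cells. Deviations of same-numbered libraries had correlations across genes of 0.00393 in LSK cells and of 0.239 and -0.0241 in neutrophils, so the numbers were not taken as pairs. With 2 or 3 libraries per group the spread, more than the depth of at least 18827892 reads, limits precision, except where reads are few. Lrg1 in wild-type LSK cells and Tmem215 in neutrophils lie near the floor of 3 reads. Counting error also weighs on Prom1 (11 and 11 reads), Cldn15 (13 and 40), Dmkn (18 and 37) and Sgms2 (20 and 42) in wild-type LSK libraries.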
